A study of Mus musculus with 24 samples.

Results

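Glucose enters and lactate leaves mammalian cells through 2 families of membrane carriers, the SLC2A facilitated hexose transporters (GLUT proteins) and the SLC16A monocarboxylate transporters (MCT proteins). RNA of 8 of these carriers was followed in CD8+ T cells activated in culture: Slc2a1, Slc2a3, Slc2a6 and Slc2a8, and Slc16a1, Slc16a3, Slc16a5 and Slc16a6. They were chosen by name as 8 of the 23420 genes in the files. All 8 were listed in all 24 libraries, and all 8 were among the 11470 genes that passed the filter on low counts. The cells carried the OT-I transgenic T cell receptor (OTI+) and came from the spleens and lymph nodes of 6 mice by CD8 microbeads. Mice 4, 5 and 6, labelled wildtype (WT), were E8i-cre-, Tcf7FL/FL. Mice 1, 2 and 3, labelled Tcf7 cKO, were E8i-cre+, Tcf7FL/FL, so both groups carried floxed Tcf7 alleles and the effect of the cre transgene itself cannot be told apart from that of the deletion. E8i-cre is driven by a Cd8a enhancer, which is active in CD8 T cells. Each mouse gave a sample before plating (0 h) and after 4, 8 and 24 h on plates coated with anti-CD3/anti-CD28 at 1 ug/mL, in the presence of murine IL2 at 6 ng/mL. Libraries were made from 1000 sorted cells each by Smart-seq2, a full-length RNA protocol without molecular identifiers. No library came from cells kept off the antibody plates, so activation cannot be told apart from time in culture and IL2.

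Resting T cells take up little glucose and oxidise much of it. On activation they turn to aerobic glycolysis, in which glucose is broken down to pyruvate, pyruvate is reduced to lactate, and lactate is exported with a proton. GLUT1 (Slc2a1) and GLUT3 (Slc2a3) are the high-affinity glucose carriers of the lymphocyte surface, while GLUT6 (Slc2a6) and GLUT8 (Slc2a8) reside largely on membranes inside the cell. MCT1 (Slc16a1) moves lactate and pyruvate in either direction, MCT4 (Slc16a3) exports lactate from strongly glycolytic cells, MCT6 (Slc16a5) carries drugs such as bumetanide and not lactate, and MCT7 (Slc16a6) is linked to the transport of ketone bodies. Surface delivery of MCT1 and MCT4 needs the chaperone basigin (Bsg). Transcription of Slc2a1 and Slc16a1 is known to respond to MYC, which binds the E-box CACGTG, and that of Slc2a1 and Slc16a3 to the hypoxia factor HIF1, which binds sites around ACGTG.

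The promoters of the 3 carriers that are textbook targets of these factors are shown, as the 250 bases before the transcription start in RefSeq on GRCm38.p6. RefSeq sequences were matched for 5 of the 8 genes. Capitals mark CACGTG in Slc16a1 and ACGTG in the other 2 genes, and bases are counted back from the start, the last base shown being -1. The Slc2a1 window is chr4:119108495-119108744 on the plus strand, that of Slc16a1 is chr3:104638414-104638663 on the plus strand and that of Slc16a3 is chr11:120948817-120949066 on the plus strand. The gene coordinates given further below come from another annotation. There Slc16a3 starts at 120948480, before its whole window, and Slc2a1 at 119108711, inside its window. The marked letters thus lie before the RefSeq start and not always before the gene as given below.
Slc2a1: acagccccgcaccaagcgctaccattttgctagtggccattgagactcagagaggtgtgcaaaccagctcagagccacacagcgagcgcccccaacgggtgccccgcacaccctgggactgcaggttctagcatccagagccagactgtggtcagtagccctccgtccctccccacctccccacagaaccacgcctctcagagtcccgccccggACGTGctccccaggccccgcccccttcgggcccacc
Slc16a1: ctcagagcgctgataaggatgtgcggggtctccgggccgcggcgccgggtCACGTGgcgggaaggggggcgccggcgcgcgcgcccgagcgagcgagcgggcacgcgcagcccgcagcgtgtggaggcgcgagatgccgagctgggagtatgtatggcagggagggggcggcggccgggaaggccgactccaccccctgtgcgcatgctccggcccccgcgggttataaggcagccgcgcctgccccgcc
Slc16a3: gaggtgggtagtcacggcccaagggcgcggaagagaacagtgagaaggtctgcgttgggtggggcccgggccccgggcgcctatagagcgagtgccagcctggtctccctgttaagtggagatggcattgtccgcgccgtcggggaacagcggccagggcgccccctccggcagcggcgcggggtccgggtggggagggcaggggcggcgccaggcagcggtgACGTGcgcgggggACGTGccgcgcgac
The letters were searched on both strands. CACGTG began at base -200 in Slc16a1 and was in none of the other 4 matched windows, against 6.02% of 32851 promoters of the same length. ACGTG began at base -36 in Slc2a1 and at bases -27 and -14 in Slc16a3, and its 2 matches in Slc16a1 were those inside the E-box, against 16.6% of all promoters. The TCF/LEF core ATCAAAG, the motif bound by the protein that Tcf7 encodes, was in 3.21% of all promoters and in 0 of the 5. The windows of Slc2a6 and Slc2a8 held none of the 3 motifs. GC content was 66.4% for Slc2a1, 76.4% for Slc16a1, 73.6% for Slc16a3, 65.2% for Slc2a6 and 52.8% for Slc2a8, with a median of 52.4% over all promoters. A match is only a description of these letters.

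The libraries held 5846265 to 9700397 expected counts, of which 1229 to 2962 fell on the 8 carriers. Tcf7 RNA, the gene named in the genotype label, did not show the deletion at the early times. Mean Tcf7 TPM (a level corrected for gene length and library size) was 540 in WT and 695 in the mice labelled cKO at 0 h, 192 and 262 at 4 h, and 73.8 and 103 at 8 h, with no call at these 3 times. At 24 h it was 69.4 and 37.2, and lower in the mice labelled cKO (log2 fold change -0.90, SE 0.126, edgeR adjusted p = 0.000221). A gene total counts all exons, and the floxed part is not given in the sources used here, so this total does not check the deletion, and cKO is used below as a label. The CD8 T cell markers (Cd8a, Cd8b1, Cd3d, Cd3e, Cd3g and Thy1) summed to 5213 to 5481 TPM in WT and 5640 to 5920 TPM in libraries labelled cKO at 0 h, and to 979 to 1020 and 1049 to 1189 TPM at 24 h. Of 18 markers of other cell types 16 were in the files, and their summed TPM ranged from 3.45 to 56.2. Most of this sum at 0 h was Cd79b, at 33.5 ± 1.79 TPM in WT and 48.0 ± 6.16 TPM in the group labelled cKO (SD, n = 3). The B cell genes Cd79a and Ms4a1 were at most 1.28 and 0.68 TPM in any library. The activation markers moved early: Cd69 had a mean of 161 TPM at 0 h and 2021 TPM at 4 h in WT, and Il2ra 0.327 and 86.7 TPM. On the first principal component the 8 h libraries of mice 2 and 5 (24.0 and 25.8) stood apart from the rest of that time (5.14 to 14.4). So did the 4 h library of mouse 3, labelled cKO, at -35.7 against -24.5 to -21.4 in the rest of its time.

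In WT cells 7 of the 8 carriers differed between 24 h and 0 h, 4 of them higher (36.9% of all tested genes) and 3 lower (40.1%), and the 8 genes took several courses. In these cells Slc16a1 and Slc2a1 rose within 4 h and were still high at 24 h. Slc2a6 and Slc16a3 were not called before 24 h in WT. Slc16a5 fell by a factor of 29.7 within 4 h, Slc2a3 fell more slowly, Slc2a8 was lowest at 8 h, and the edgeR fit called Slc16a6 in no comparison. The same 8 genes are plotted for each mouse in the panels of TPM against time. Most genes changed in these comparisons: 59.0% of all tested genes were called at 4 h against 0 h in WT, 67.4% at 8 h and 77.0% at 24 h, against 5, 5 and 7 of the 8 carriers. In mice labelled cKO the background was 57.2%, 65.6% and 76.3%, against 4, 6 and 6 carriers. The shares of carriers called were thus near those of all genes. The median log2 fold change of the 8 at 24 h against 0 h was 0.44 in WT and 0.56 in mice labelled cKO, against -0.08 and -0.07 over all genes. In bulk RNA fewer cells of a type and less RNA per cell cannot be told apart.

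**Figure D1:**
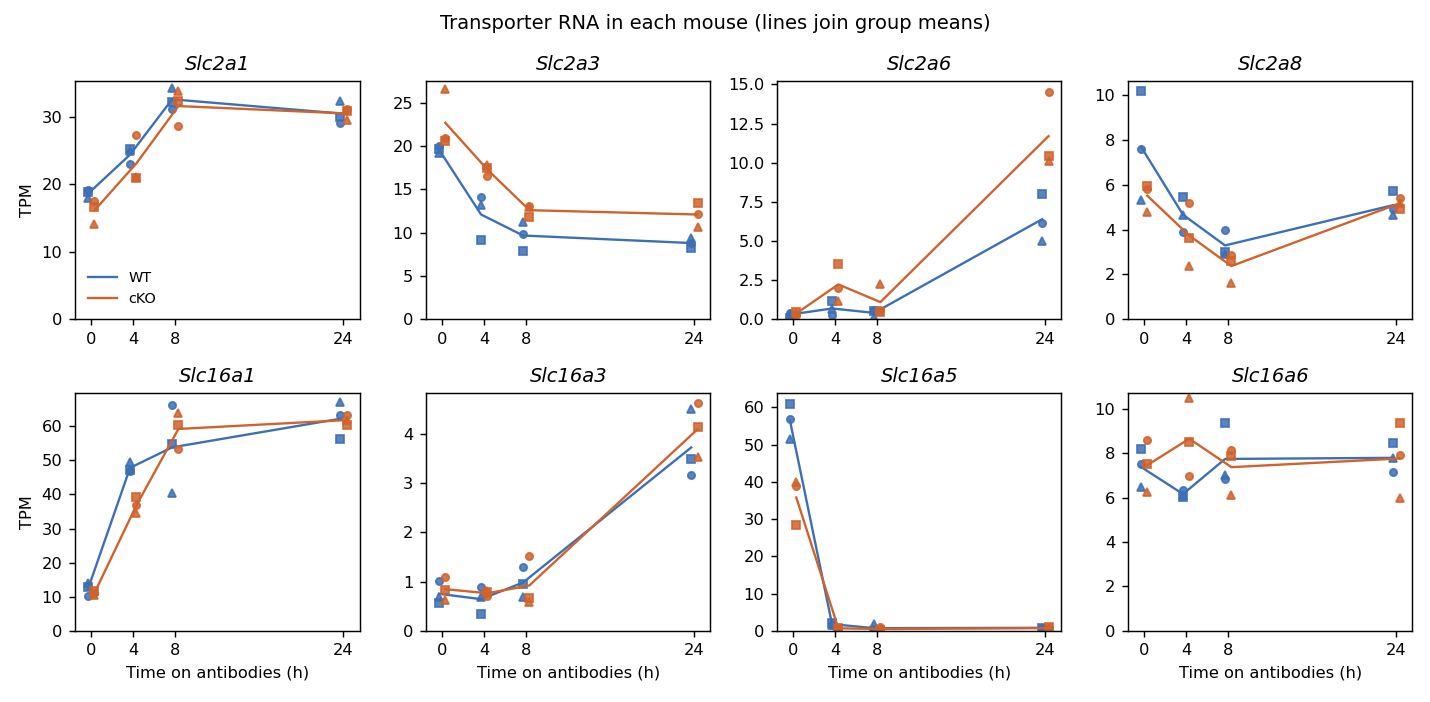
TPM of each carrier (vertical axes, 1 panel a gene, each with its own scale from 0) against hours on the antibody plates. Circles are mice 4 (WT) and 1 (labelled cKO), squares mice 5 and 2, triangles mice 6 and 3, and lines join the means of 3 mice. In WT Slc16a5 drops from 56.4 to 1.78 TPM by 4 h, while Slc2a6 and Slc16a3 rise after 8 h. In mice labelled cKO the mean of Slc2a6 is already higher at 4 h (2.22 TPM) than at 0 h (0.363 TPM).

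GLUT1, encoded by Slc2a1 (chromosome 4, 119108711 to 119137983 on GRCm38, plus strand), is the main glucose carrier induced in activated T cells. At 0 h Slc2a1 stood at 19.1, 18.8 and 17.9 TPM in WT mice 4, 5 and 6 and at 17.5, 16.7 and 14.1 TPM in mice 1, 2 and 3, labelled cKO. At 4 h the WT values were 23.0, 25.2 and 24.9 TPM and those labelled cKO 27.3, 21.0 and 21.1 TPM. Every 4 h library was thus above every 0 h library. At 8 h the values were 31.2, 32.2 and 34.3 TPM in WT and 28.6, 32.4 and 33.8 TPM in mice labelled cKO, and at 24 h 29.1, 30.0 and 32.4 TPM and 31.2, 30.9 and 29.5 TPM. The 8 h and 24 h groups overlapped in both genotypes. In WT Slc2a1 was 1.4-fold higher at 4 h than at 0 h (log2 fold change 0.49, SE 0.124, adjusted p = 0.00101), 1.95-fold at 8 h (0.97, SE 0.121, adjusted p = 8.13e-09) and 1.69-fold at 24 h (0.76, SE 0.12, adjusted p = 6.48e-07). The log2 fold changes of mice labelled cKO were 0.60, 1.09 and 0.99, with the largest adjusted p, 8.24e-05, at 4 h. The step from 4 to 8 h was also called, with a log2 fold change of 0.48 in WT (adjusted p = 0.00125) and 0.49 in mice labelled cKO (adjusted p = 0.0012), and without mouse 2 the latter had an adjusted p of 0.0614. From 8 to 24 h the difference was -0.21 in WT (95% interval -0.43 to 0.02) and -0.10 in mice labelled cKO (-0.32 to 0.13), and neither was called. At this step 2 of 8 carriers were called in WT and 3 in mice labelled cKO, with 58.7% and 57.3% of all genes. From 4 to 8 h it was 1 carrier and 3 carriers, with 41.6% and 40.4% of all genes.

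GLUT3, encoded by Slc2a3 (chromosome 6, 122727809 to 122801640, minus strand), is a high-affinity carrier also known from neurons, and it moved the opposite way. Slc2a3 began at 20.0, 19.7 and 19.2 TPM in WT and at 21.0, 20.6 and 26.6 TPM in mice labelled cKO. At 4 h it was 14.1, 9.11 and 13.2 TPM in WT and 16.5, 17.5 and 17.8 TPM in mice labelled cKO. In either genotype every 4 h library was below every 0 h library. At 8 h the levels were 9.85, 7.93 and 11.2 TPM against 13.1, 11.8 and 13.0 TPM, and at 24 h 8.79, 8.21 and 9.39 TPM against 12.2, 13.4 and 10.6 TPM, WT first. The lowest value of the group labelled cKO lay above the highest WT value at each of the 4 times. In WT Slc2a3 fell by 0.59 on the log2 scale at 4 h (SE 0.137, adjusted p = 0.000362) and by 0.87 at 8 h (SE 0.138). The WT decrease at 24 h was 2.16-fold (-1.11, SE 0.137, adjusted p = 4.03e-09). In mice labelled cKO the change at 4 h was -0.30 (SE 0.132, adjusted p = 0.0502), which missed the threshold, and with the mouse as a block its adjusted p was 0.0486. It was called in 9 of 16 alternative fits, the block among them. There it fell by 0.71 at 8 h (adjusted p = 1.63e-05) and by 0.82 at 24 h (adjusted p = 8.4e-07). The step from 4 to 8 h was -0.28 in WT (adjusted p = 0.12) and -0.41 in mice labelled cKO (adjusted p = 0.0144), and the latter call was lost without mouse 2 (adjusted p = 0.121) or mouse 3 (0.0664). Within mice, Slc2a3 was lower at 24 h than at 0 h in 6 of 6 animals.

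Because Slc2a1 RNA rose while Slc2a3 RNA fell, the balance of these 2 RNAs turned over. Carrier protein at the cell surface was not measured. The ratio of Slc2a1 to Slc2a3 TPM was 0.958, 0.95 and 0.934 in WT mice at 0 h and 3.31, 3.65 and 3.45 at 24 h. For mice labelled cKO it was 0.835, 0.81 and 0.53 at 0 h and 2.55, 2.3 and 2.78 at 24 h. The ratio was lower in the mice labelled cKO, without overlap, at 0, 8 and 24 h, while at 4 h the values of 1.65, 1.2 and 1.18 overlapped the WT values of 1.64, 2.77 and 1.89. These ratios are a description of the levels given above for the same 2 genes and were not tested on their own. The TPM ranges of the genotypes did not overlap for 14.5%, 10.6% and 13.1% of single genes at 0, 8 and 24 h. No such share was taken for ratios.

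GLUT6, encoded by Slc2a6 (chromosome 2, 27021363 to 27027998, minus strand), is a carrier of intracellular membranes, and it showed the largest increase of the 8 at 24 h. At 0 h it was close to absent, at 0.41, 0.1 and 0.36 TPM in WT and 0.25, 0.46 and 0.38 TPM in mice labelled cKO, on 1 to 5 counts a library. By 24 h it had reached 6.14, 8.02 and 5.01 TPM in WT and 14.5, 10.4 and 10.1 TPM in mice labelled cKO, on 58 to 164 counts. All 24 h libraries were above all earlier ones, and the genotypes did not overlap there. At 4 h Slc2a6 was at 0.24, 1.16 and 0.65 TPM in WT and 2.02, 3.51 and 1.13 TPM in mice labelled cKO, and at 8 h at 0.6, 0.49 and 0.11 TPM and 0.58, 0.46 and 2.23 TPM. The increase at 24 h over 0 h was 24.6-fold in WT (log2 fold change 4.62, SE 0.541, adjusted p = 1.8e-09) and 35.1-fold in mice labelled cKO (5.14, SE 0.481, adjusted p = 8.57e-12), with low counts at 0 h behind both. In WT neither 4 h (1.42, SE 0.784, adjusted p = 0.119) nor 8 h (0.62, SE 0.862, adjusted p = 0.536) was called against 0 h. In mice labelled cKO Slc2a6 rose at 4 h (2.77, SE 0.568, adjusted p = 8.34e-05) and at 8 h (1.62, SE 0.654, adjusted p = 0.0297). The 8 h call was lost without mouse 3 (0.67, adjusted p = 0.49) and without mouse 1 (1.72, adjusted p = 0.0573). It was also lost with limma on log2(TPM + 1) (0.52, adjusted p = 0.106). The difference between genotypes in the change from 0 to 4 h was 1.35 (SE 1.07, adjusted p = 0.849), so it was not called. The 4 h library of mouse 2, with the highest Slc2a6 of that time, also held 21.4 TPM of the erythroid gene Hba-a1, which was at 0 to 0.59 TPM in the other 4 h libraries. Of 5 tested markers of other cell types 2 were higher and 1 lower at 4 h than at 0 h in either genotype. Of all genes 59.0% were called in WT and 57.2% in mice labelled cKO. At 4 h Itgam and Itgax had means of 1.72 and 0.843 TPM in the group labelled cKO and 0.617 and 0.42 TPM in WT. The means of Csf1r, H2-Aa and Flt3 were lower in the group labelled cKO. The part of such RNA in the Slc2a6 result was not tested.

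GLUT8, encoded by Slc2a8 (chromosome 2, 32972990 to 32982083, minus strand), is likewise held inside cells, and its RNA dipped. It started at 7.6, 10.2 and 5.32 TPM in WT and 5.83, 5.94 and 4.77 TPM in mice labelled cKO. The lowest values came at 8 h, with 3.97, 3.0 and 2.89 TPM in WT and 2.88, 2.61 and 1.62 TPM in mice labelled cKO, all below the 0 h values of their genotype. At 4 h the values were 3.89, 5.45 and 4.64 TPM and 5.18, 3.61 and 2.39 TPM, and at 24 h 4.9, 5.73 and 4.64 TPM and 5.43, 4.9 and 5.19 TPM. At 8 h against 0 h it fell by 1.10 in WT (SE 0.276, adjusted p = 0.000653) and by 1.08 in mice labelled cKO (SE 0.294, adjusted p = 0.00161). From 8 to 24 h it rose by 1.06 in mice labelled cKO (SE 0.294, adjusted p = 0.00248), while the WT difference of 0.55 was not called (adjusted p = 0.0908). That WT rise was called in 5 of 16 alternative fits, with adjusted p from 0.0312 (without mouse 3) to 0.0494 (a filter of 5 CPM). The WT decreases at 4 h (-0.64, adjusted p = 0.0383) and at 24 h (-0.56, adjusted p = 0.0479) were near the threshold. They were lost in 4 and in 10 of 16 alternative fits, and without mouse 5 their adjusted p was 0.246 and 0.298.

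MCT1, encoded by Slc16a1 (chromosome 3, 104638668 to 104658462, plus strand), the lactate and pyruvate carrier, had the highest level of the 8 at 4 h and later. Slc16a1 rose from 10.2, 12.9 and 13.9 TPM at 0 h to 46.8, 47.3 and 49.4 TPM at 4 h in WT. Mice labelled cKO went from 11.0, 11.7 and 10.4 TPM to 36.8, 39.1 and 34.5 TPM. The 4 h libraries of the 2 genotypes did not overlap, with WT higher. By 8 h the values were 66.3, 54.7 and 40.3 TPM in WT, the widest spread of its 8 groups, and 53.4, 60.5 and 63.9 TPM in mice labelled cKO. At 24 h they were 63.3, 56.3 and 67.0 TPM in WT and 63.2, 60.3 and 61.7 TPM in mice labelled cKO, so that the genotypes overlapped at both of these times. The WT increase over 0 h was 4.15-fold at 4 h (log2 fold change 2.05, SE 0.126, adjusted p = 3.96e-16), 4.81-fold at 8 h (2.27, SE 0.126) and 5.2-fold at 24 h (2.38, SE 0.126, adjusted p = 1.57e-18). The increase in mice labelled cKO was 3.55-fold, 5.86-fold and 5.91-fold. The step from 4 to 8 h was called in mice labelled cKO (0.72, SE 0.117, adjusted p = 5.77e-06) and not in WT (0.22, SE 0.116, adjusted p = 0.141), and the difference between these steps was not tested. The absence of a WT call rested on mouse 6, whose 8 h library was the lowest of its group: without it the WT step was 0.40 and called (adjusted p = 0.0115).

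MCT4, encoded by Slc16a3 (chromosome 11, 120948480 to 120960868, plus strand), the lactate exporter of glycolytic cells, stayed low until after 8 h. Over the 18 libraries of 0, 4 and 8 h it lay between 0.35 TPM (WT mouse 5 at 4 h) and 1.53 TPM (mouse 1, labelled cKO, at 8 h), on 3 to 16 counts. The values at 24 h were 3.16, 3.5 and 4.52 TPM in WT and 4.63, 4.14 and 3.54 TPM in mice labelled cKO. Every 24 h library was above every earlier one. Against 0 h the 24 h increase was 5.26-fold in WT (2.39, SE 0.393, adjusted p = 1.28e-06) and 5.05-fold in mice labelled cKO (2.34, SE 0.373, adjusted p = 7.44e-07). From 8 to 24 h alone it was 1.84 in WT (SE 0.376, adjusted p = 7.96e-05) and 2.07 in mice labelled cKO (SE 0.381, adjusted p = 1.81e-05). At 4 h against 0 h the difference was -0.10 in either genotype, with adjusted p = 0.881 in WT and 0.875 in mice labelled cKO.

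MCT6, encoded by Slc16a5 (chromosome 11, 115462474 to 115474398, plus strand), was the most abundant of the 8 before activation and lost nearly all of its RNA by 4 h. At 0 h Slc16a5 stood at 56.8, 60.9 and 51.4 TPM in WT and at 39.0, 28.4 and 40.0 TPM in mice labelled cKO, on 487 to 925 counts. By 4 h it was down to 1.55, 2.16 and 1.62 TPM in WT and to 0.78, 0.76 and 0.45 TPM in mice labelled cKO. At both times all WT libraries were above all libraries labelled cKO. At 8 h it ranged from 0.07 to 1.69 TPM over the 6 libraries, on 1 to 25 counts, and at 24 h from 0.41 to 0.93 TPM. The decrease at 4 h was 29.7-fold in WT (-4.89, SE 0.333, adjusted p = 3.7e-11) and 49.1-fold in mice labelled cKO (-5.62, SE 0.386, adjusted p = 4.62e-11). At 24 h against 0 h it was 67.5-fold (-6.08, SE 0.352) and 46.7-fold (-5.54, SE 0.361). From 4 to 8 h the difference was -1.19 in WT (SE 0.536, adjusted p = 0.0837) and -0.44 in mice labelled cKO (adjusted p = 0.67), and neither was called in the edgeR fit. The 8 h values of WT mice 4, 5 and 6 were 0.38, 0.07 and 1.69 TPM, and the WT step rested on which mice were kept: it was -3.12 without mouse 6, which was called (adjusted p = 0.000277), and -0.49 without mouse 5 (adjusted p = 0.53). The same WT step was called by limma on TPM (adjusted p = 0.0118) and without the low-count filter (adjusted p = 0.00201). From 8 to 24 h the WT difference was 0.00 (adjusted p = 0.997), and without mouse 6 it was 1.95 and called (adjusted p = 0.0215).

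MCT7, encoded by Slc16a6 (chromosome 11, 109450855 to 109473598, minus strand), was called in no comparison by the edgeR fit. Slc16a6 lay between 6.0 and 10.5 TPM in all 24 libraries, and the means of the 8 groups ran from 6.16 TPM (WT at 4 h) to 8.65 TPM (labelled cKO at 4 h). In the order of the 8 means every pair of neighbours overlapped. Against 0 h the WT differences were -0.16, 0.24 and 0.13 at 4, 8 and 24 h, with SE of 0.194, 0.188 and 0.185 and adjusted p of 0.482, 0.263 and 0.539. Those of mice labelled cKO were 0.29, 0.11 and 0.13, with adjusted p of at least 0.185. Without mouse 1 the 4 h difference in mice labelled cKO was 0.55 and called (adjusted p = 0.0418), and without mouse 3 it was 0.02 (adjusted p = 0.931). The Slc16a6 locus overlaps Amz2 and Arsg on the opposite strand, and without strand in the counting reads from overlapping exons cannot be told apart. Amz2 had WT means of 8.3 TPM at 0 h and 14.1 TPM at 24 h, and Arsg was at most 1.4 TPM in the mean of any group. The loci of Slc2a1 and Slc16a5 also overlap gene models on the opposite strand, and those of Slc2a1, Slc2a3 and Slc16a1 overlap others on the same strand. Expected counts were whole in 8 of 24 libraries for Slc16a1, 14 for Slc16a6 and 15 for Slc2a3. For the other carriers they were whole in 21 to 24. The part of shared reads was not tested.

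**Figure D2:**
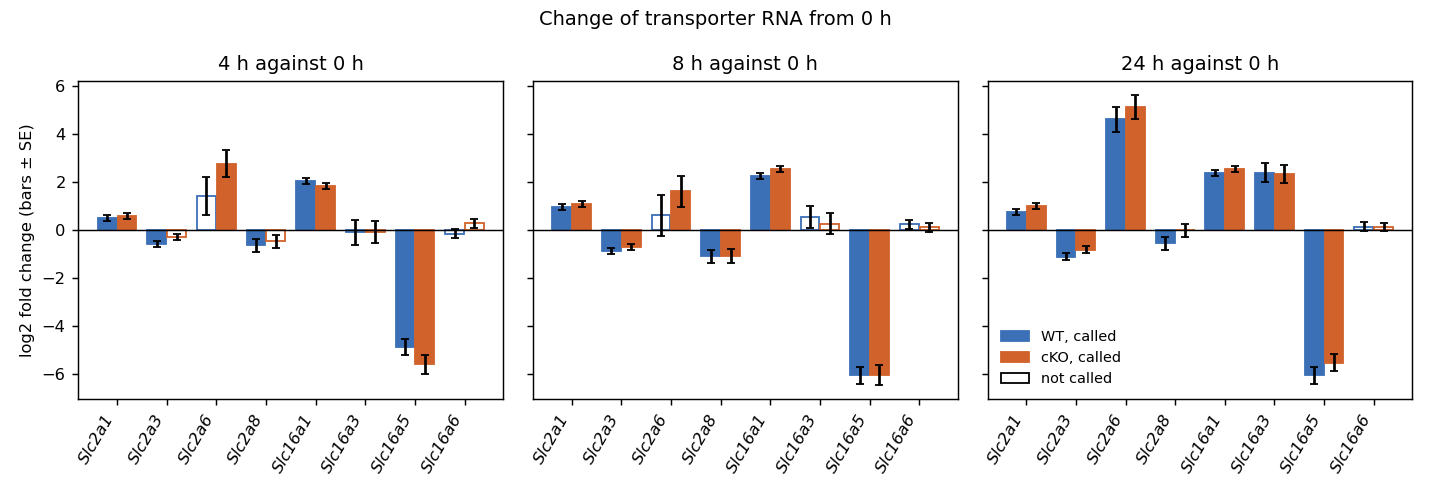
Log2 fold change from 0 h for the 8 carriers at 4, 8 and 24 h (vertical axis, bars with SE from the edgeR fit), in WT (blue) and in mice labelled cKO (orange), with filled bars for changes called at an adjusted p under 0.05. At 24 h Slc2a6 reaches 4.62 in WT and 5.14 in mice labelled cKO, and Slc16a5 is at -6.08 and -5.54.

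The order of the group means, over 8 groups, followed time more than genotype for most carriers. For Slc2a1 the means ran from 32.6 ± 1.61 TPM (SD, n = 3) in WT at 8 h to 16.1 ± 1.81 TPM in mice labelled cKO at 0 h, and the 4 groups of 8 and 24 h each overlapped the next of the 4 in that order and lay above the 4 h groups. For Slc16a1 they ran from 62.2 ± 5.44 TPM in WT at 24 h to 11.0 ± 0.626 TPM in mice labelled cKO at 0 h. For Slc2a3 the first 4 of the 8 places, from 22.7 ± 3.31 TPM, were taken by the group labelled cKO at 0, 4 and 8 h and by WT at 0 h, and WT at 24 h was last at 8.8 ± 0.59 TPM. Over the 24 libraries Slc2a1 and Slc16a1 moved together (Pearson r of log2(TPM + 1) 0.90), Slc2a1 and Slc2a3 moved apart (-0.86), and so did Slc16a1 and Slc16a5 (-0.96). These correlations describe libraries that share mice and times and carry no test.

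The genotype comparison asks whether carrier RNA differs with the label of Tcf7, the gene of the transcription factor TCF1. At single times the edgeR fit called 0 of the 8 carriers at 0, 4, 8 and 24 h, with 0.445%, 0.82%, 0.183% and 0.105% of all genes called. Unadjusted p was under 0.05 for 1 of the 8 at 0 h, 5 at 4 h, 1 at 8 h and 2 at 24 h. The share of all genes with unadjusted p under 0.05 was not taken, so these counts have no background to be read against. Without the low-count filter 1 carrier was called at 0 h and 3 at 4 h, with 0.613% and 1.12% of all genes called in those fits. DESeq2 called 1 carrier at 4 h, with 1.88% of all genes. Fits of only the groups compared called 1, 1 and 2 carriers at 0, 4 and 24 h, with 0.343%, 0.913% and 0.966% of all genes. TPM ranges of the genotypes did not overlap for 3 of the 8 at 0 h (Slc2a1 and Slc16a5 lower and Slc2a3 higher in mice labelled cKO), against 14.5% of all genes. At 4 h this held for 4 of the 8 (Slc16a1 and Slc16a5 lower, Slc2a3 and Slc16a6 higher), against 16.4%. At 8 h it held for 2 (Slc2a3 higher and Slc2a8 lower), against 10.6%, and at 24 h for 2 (Slc2a3 and Slc2a6, both higher), against 13.1%.

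Of the 8, Slc2a3 alone was higher in mice labelled cKO in TPM, without overlap, at all 4 times, a pattern shown by 24 of the 11470 genes (0.209%). That share counts only genes higher in mice labelled cKO, the direction of Slc2a3. Genes lower in those mice at all 4 times are not in it. The fitted difference of Slc2a3 was 0.17 ± 0.13 (SE) at 0 h and 0.46 ± 0.138 at 4 h, with adjusted p of 0.86 and 0.111. At 8 h it was 0.33 ± 0.142 and at 24 h 0.46 ± 0.138, with adjusted p of 0.432 and 0.51. For Slc16a5 the difference was -0.69 ± 0.239 (SE) at 0 h and -1.42 ± 0.557 at 4 h, with adjusted p of 0.40 and 0.303, and the unfiltered fit called both (adjusted p = 0.0105 and 0.0094). For Slc16a1 the 4 h difference was -0.42 (SE 0.118, adjusted p = 0.0897), and that at 24 h was -0.01 with a 95% interval of -0.23 to 0.21. Slc2a6 differed by 1.71 at 4 h (SE 0.537, adjusted p = 0.14) and by 0.87 at 24 h (SE 0.326, adjusted p = 0.951). Slc2a1, the carrier usually followed in activated T cells, differed by 0.00 at 24 h with a 95% interval of -0.22 to 0.23. The 4 interactions, which ask whether a change over time differed between genotypes, called 0 of the 8 carriers, with adjusted p from 0.68 to 1. In these, 0.00872% of all genes were called at 4 h against 0 h, 0.00872% at 8 h, 0.0174% at 24 h and 0.00872% for 24 h against 8 h. Unadjusted p was under 0.05 for 0 of the 8 in each, again without a share over all genes.

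A comparison of genotypes over all times was added after these levels had been seen, so that it gives no independent support. Each mouse's mean log2 CPM (counts scaled to library size by TMM) over its 4 libraries was compared by limma, 3 mice against 3. The mouse averages printed below were taken with another small value added to CPM before the log than those that limma compared. Their differences therefore need not equal the fitted ones, above all at low counts, as for Slc2a6 and Slc16a5. Slc2a3 averaged 5.2, 5.24 and 5.22 in mice 1, 2 and 3, labelled cKO, and 4.91, 4.71 and 4.97 in WT mice 4, 5 and 6, a 1.28-fold difference (log2 0.36, SE 0.0724, adjusted p = 0.00551). Slc2a6 averaged 1.44, 1.54 and 1.5 in mice labelled cKO and 0.71, 0.99 and 0.58 in WT, a 1.82-fold difference (0.86, SE 0.208, adjusted p = 0.0275). All 3 mice labelled cKO were above all 3 WT mice for both genes. The share of all genes whose mouse averages did not overlap was not taken, so such a separation has no background to be read against. These were the 2 of 8 carriers called, against 1.51% of all genes. Without mouse 5 the adjusted p of Slc2a3 was 0.0682, and that of Slc2a6 was 0.0564, 0.0815, 0.0901 and 0.152 without mice 1, 2, 4 and 6. Slc16a5, at 2.3, 1.83 and 1.68 against 2.41, 2.31 and 2.76, was not called (-0.60, SE 0.194, adjusted p = 0.17), and neither was Slc16a1 (-0.12, SE 0.0528, adjusted p = 0.366), although the mice of the 2 groups did not overlap for either. Without mouse 1 the Slc16a5 difference was -0.81 and called (adjusted p = 0.0153). The CD8 marker Cd8a was also higher in mice labelled cKO in this comparison (0.25, SE 0.049, adjusted p = 0.00471), as was Cd3g (0.21, SE 0.0481, adjusted p = 0.0152), which makes 2 of the 6 CD8 markers, and 0 of the 5 tested markers of other cell types were called. Cd8a was also called at 8 h alone (0.43, SE 0.0848, adjusted p = 0.014). The part of such shifts in the Slc2a3 and Slc2a6 results was not tested.

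**Figure D3:**
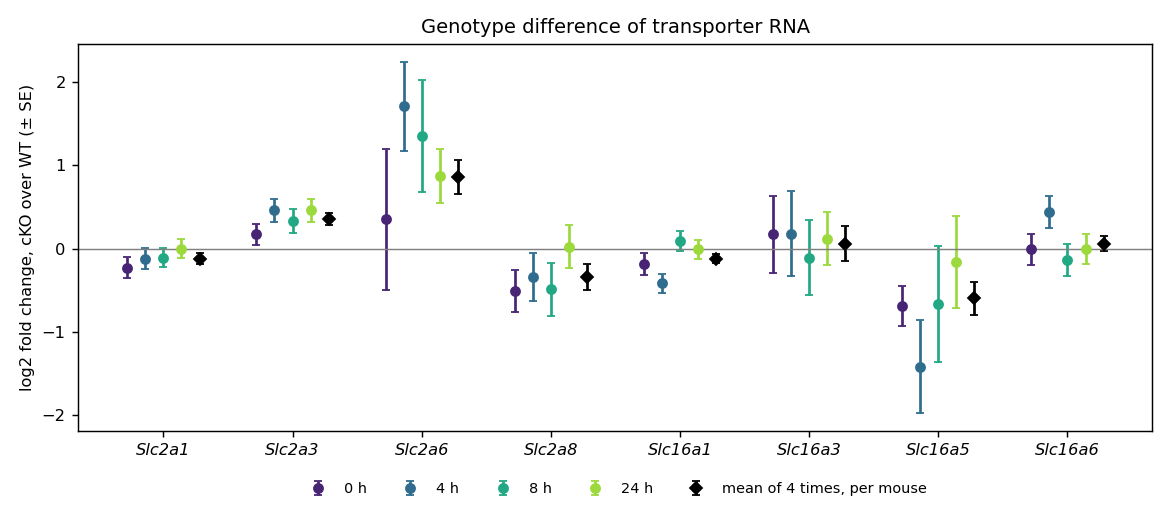
Log2 fold change of mice labelled cKO over WT for the 8 carriers, at each time (circles, edgeR) and for the means of the 4 times per mouse (diamonds, limma), with SE. Slc2a3 lies above 0 at each time, between 0.17 and 0.46, and its diamond is at 0.36, while Slc2a1 at 24 h is at 0.00.

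The make-up of each family changed over time. The 12 SLC2A genes in the files summed to 50.3 ± 2.73 TPM at 0 h and 51.8 ± 1.56 TPM at 24 h in WT, and to 47.9 ± 1.37 and 60.2 ± 3.68 TPM in mice labelled cKO (SD, n = 3). In WT Slc2a3 held 39.1% of this sum at 0 h and 17.0% at 24 h, Slc2a1 went from 37.0% to 58.8%, and Slc2a6 from 0.585% to 12.3%. In mice labelled cKO Slc2a6 reached 19.3% at 24 h, with 17.2 to 22.8% over the 3 mice, against 9.48 to 15.2% in WT. The 14 SLC16A genes summed to 87.5 ± 5.33 TPM at 0 h, 69.4 ± 1.4 TPM at 4 h and 91.9 ± 7.44 TPM at 24 h in WT. At 8 h the WT sum spanned 68.6 to 111.0 TPM. In mice labelled cKO the sum was 66.7 ± 6.55, 63.2 ± 1.98, 97.3 ± 6.3 and 91.6 ± 4.53 TPM at 0, 4, 8 and 24 h. From 4 to 8 h in those mice the total moved more than the Slc16a1 share, which was 58.3% and 60.9%. Slc16a5 made up 64.4% of this family in WT at 0 h and 2.56% at 4 h, while Slc16a1 went from 14.1% to 68.9%. In mice labelled cKO Slc16a5 went from 53.4% to 1.06% and Slc16a1 from 16.7% to 58.3%. The SLC16A gene with the most RNA was thus Slc16a5 at 0 h and Slc16a1 at 4 h in both genotypes. Shares of a family are tied to each other and were not tested.

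**Figure D4:**
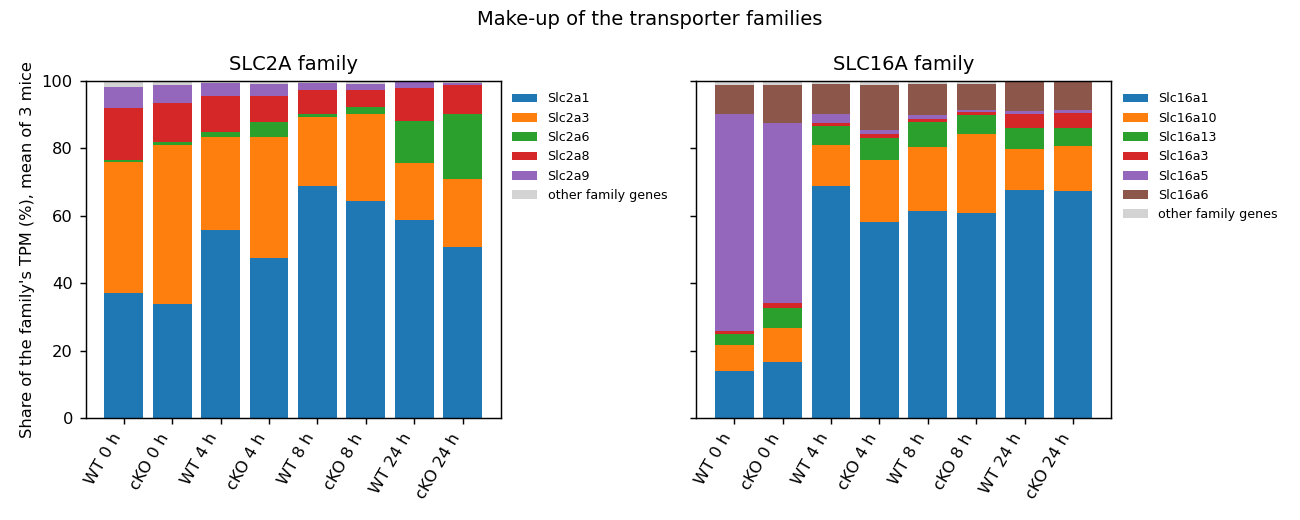
Share of the summed TPM of the SLC2A and SLC16A families (vertical axis, %, means of 3 mice) held by each carrier in the 8 groups, with other family genes in grey. In WT the Slc16a5 share is 64.4% at 0 h and 2.56% at 4 h, and the Slc2a1 share is 37.0% at 0 h and 58.8% at 24 h.

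The genes whose RNA was most like each carrier over the 24 libraries were taken as the 3 with the highest Pearson r of log2(TPM + 1), among 6046 genes with a mean of at least 10 TPM. For Slc16a1 these were Psme3 (0.987), Etf1 (0.984) and Naa50 (0.984), and for Slc2a1 Bola2 (0.966), Psmc2 (0.965) and Pam16 (0.965). Slc16a3 was most like Nuf2 (0.97), Ccna2 (0.961), the cyclin of S and G2 phase, and Rrm1 (0.96), a subunit of ribonucleotide reductase. Slc2a6 was most like Rfwd3 (0.94), Pold3 (0.931), a DNA polymerase subunit, and Plk4 (0.922), a kinase of centriole duplication. Slc2a3 was most like Tox (0.935), Plac8 (0.919) and Ube4a (0.919), genes that were also lower at 24 h, Tox at 36.9 TPM in WT at 0 h and 11.8 TPM at 24 h. For Slc16a5 they included Ppdpf (0.984) and Rpl10a (0.977), and for Slc2a8 they were Nrde2 (0.852), Rpl10 (0.839) and Iqcc (0.837). No gene came close for Slc16a6, whose best r was 0.492 (Apmap). These values describe 24 libraries that share mice, times and depth, and carry no test.

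The rest of the route was read from lists of pathway genes. Of 18 glycolysis enzymes 16 were tested. In WT 8 were higher and 5 lower at 4 h than at 0 h, and 14 were higher and 1 lower at 24 h, against 59.0% and 77.0% of all genes called in either direction, with median log2 fold changes of 0.10 and 1.60 over the enzymes. Hk2, the hexokinase that traps glucose in the cell, rose with Slc16a1, from 0.447 TPM at 0 h to 18.2 TPM at 4 h (5.47, SE 0.205) and 26.4 TPM at 24 h (5.95, SE 0.20, adjusted p = 1.42e-24). Pgam1 rose by 1.77 at 4 h and 2.68 at 24 h, Ldha, which makes lactate, by 0.89 at 4 h, Gapdh by 2.28 at 24 h and Pgk1 by 2.07 at 24 h. Eno1 fell by 1.34 at 4 h (SE 0.107, adjusted p = 1.54e-12), from 600 to 223 TPM. The enzymes thus did not move as a block at 4 h, when Slc2a1 and Slc16a1 were already up. In genotype comparisons 0 of the 16 enzymes were called at single times, with 0.105% to 0.82% of all genes called. Over the 4 times 1 of the 16 was called, with 1.51% of all genes. Ldhb, which favours the step from lactate to pyruvate, was higher in mice labelled cKO over the 4 times (0.51, SE 0.121, adjusted p = 0.0258), and at 4 h it was 10.8, 8.68 and 11.4 TPM in mice labelled cKO against 5.54, 3.34 and 7.53 TPM in WT (adjusted p = 0.109).

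Of 11 other sugar, lactate and pyruvate carriers and MCT chaperones 9 were tested, and in WT 3 were higher and 4 lower at 4 h and 3 higher and 5 lower at 24 h, against 59.0% and 77.0% of all genes called. Bsg, the chaperone of MCT1 and MCT4, rose from 172 TPM at 0 h to 296 TPM at 4 h (0.87, SE 0.0956) and 656 TPM at 24 h (1.96, SE 0.0968, adjusted p = 7.4e-20). Emb, embigin, the other chaperone of the family, fell from 310 to 145 TPM by 24 h (-1.05, SE 0.0809, adjusted p = 2.79e-14). Mpc1, a subunit of the mitochondrial pyruvate carrier, rose by 0.50 at 4 h and 1.15 at 24 h, and its partner Mpc2 fell by 0.61 at 4 h and rose by 0.26 at 24 h (adjusted p = 0.0455). Slc50a1, a sugar carrier of the SWEET family, fell by 1.16 at either time. Of the 8 other SLC2A genes only Slc2a9, a urate carrier, passed the filter, and it fell by 0.88 at 4 h (adjusted p = 0.0376) and by 1.79 at 24 h (adjusted p = 5.47e-05). Of the 10 other SLC16A genes 2 passed, and both were higher at 24 h: Slc16a10, an aromatic amino acid carrier, by 1.31 (SE 0.189, adjusted p = 1.89e-07) and Slc16a13 by 0.98 (SE 0.253, adjusted p = 0.000694). None of these 12 tested genes was called at any single time between genotypes or over the 4 times. Of all genes 0.105% to 0.82% were called at single times and 1.51% over the 4 times, so the absence of calls is near the background.

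Of 16 regulators of glucose carrier genes or traffic 15 were tested, and in WT 7 were higher and 2 lower at 4 h and 7 higher and 4 lower at 24 h. With 59.0% and 77.0% of all genes called, these shares were near the background. Myc rose from 144 to 1161 TPM at 4 h (3.11, SE 0.102, adjusted p = 4.28e-24) and stood at 441 TPM at 24 h (1.66, SE 0.0971). Irf4, a factor induced by T cell receptor signals, rose by 8.67 at 4 h and 6.85 at 24 h. Txnip, which promotes removal of GLUT1 from the surface, fell from 165 to 43.2 TPM at 4 h (-1.83, SE 0.103) and to 8.16 TPM at 24 h (-4.28, SE 0.118, adjusted p = 4.82e-27). Tbc1d1, a regulator of carrier traffic, fell by 1.58 at 4 h and 1.27 at 24 h. No regulator on the list was called between genotypes at a single time (0.105% to 0.82% of all genes) or over the 4 times (1.51%). The lists' medians at 24 h against 0 h in WT were 1.60 for the enzymes, -0.59 for the other carriers and chaperones and -0.07 for the regulators, against -0.08 over all genes.

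**Figure D5:**
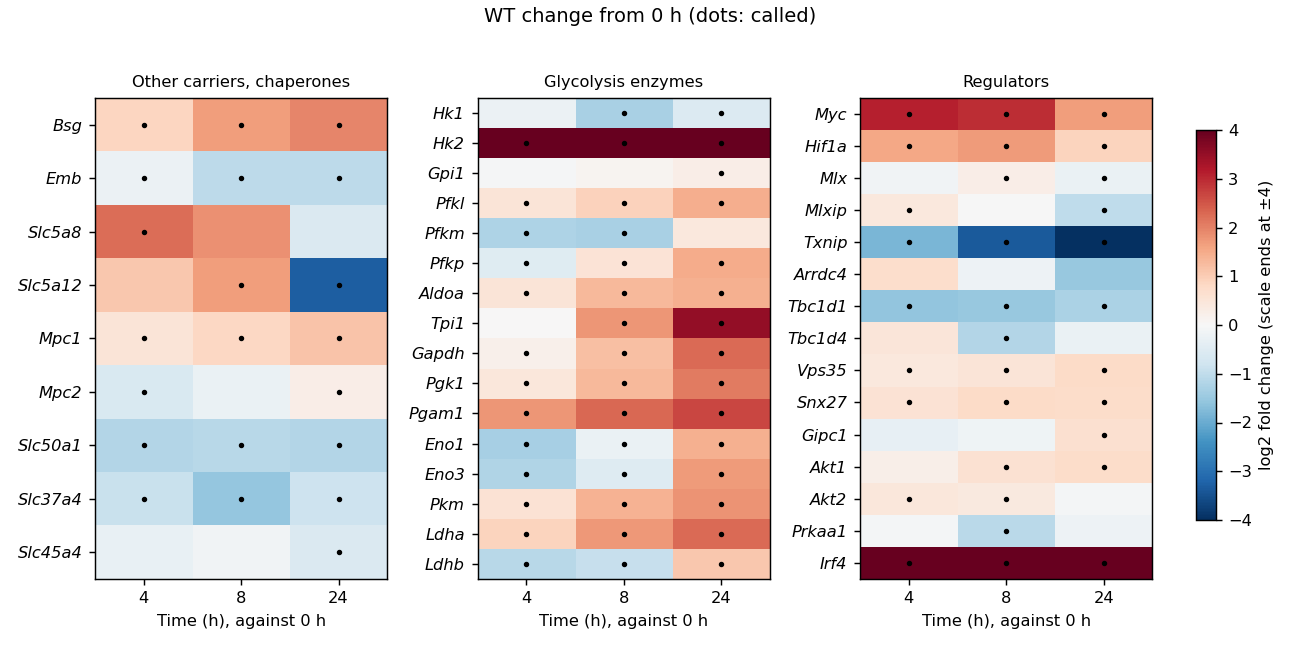
Log2 fold change in WT at 4, 8 and 24 h against 0 h (columns) for the tested genes of 3 lists (rows), in colour on a scale that ends at ±4, with dots for called changes. Eno1 is lower at 4 h (-1.34) although 14 of the 16 enzymes are higher at 24 h.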

How the data were processed

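RNA of 24 libraries, 8 groups of 3 mice, was sequenced by Smart-seq2. Per the submitters' processing notes, STAR, RSEM and DESeq2 were named with mm10, with versions and options not given in the sources used here. The deposited files give, per the file headers, the expected count of 23420 genes, RSEM's estimate of a gene's reads, together with TPM and FPKM, and FPKM was not used. RSEM shares out reads that match several genes, so expected counts need not be whole. Whether strand was used is not given, and Smart-seq2 does not keep it.

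The authors' expected counts were rounded and tested with edgeR 4.0.16 (R 4.3.3): its filter over the 8 groups (11470 genes), TMM scaling, and a robust quasi-likelihood fit over all 24 libraries, from which 18 comparisons were drawn. Tests were two-sided, with Benjamini-Hochberg adjustment over all genes of a comparison, and a gene was called at an adjusted p under 0.05. The SE of a log2 fold change is its size divided by the square root of F, and 95% intervals take that SE as normal. The comparison over the 4 times used limma 3.58.1. Levels are the deposited TPM. Replicates are separate mice, and libraries without molecular identifiers count reads, not molecules. Fits were tested on simulated counts. The members and lists were chosen with earlier results of these data known. List genes named are up to 4 called genes with the smallest adjusted p at 4 and 24 h in WT and those called between genotypes. Alternatives were DESeq2 1.42.0, other size factors, other filters, limma on log2(TPM + 1), fits of only the groups compared, removal of Rn45s (7.39 to 20.6% of counts), a mouse block, and leaving out each mouse or the libraries that stood apart. Same-numbered samples are the same animal at the 4 times, and their deviations from the group means correlated between -0.0846 and 0.163. A gene among those most like Slc16a5 and a cell type marker are not reported here.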

Additional observations from a re-analysis of the deposited data

How the results depend on the processing

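Over 152 values of the 8 carriers, 44 were called, 37 of these in every alternative run, and 108 were not called, 17 of them called in at least 1. Of 2305 alternative values 26 lost and 36 gained the call and 0 reversed a called direction. Between genotypes the 0 carriers called at 0 h became 1 with no filter and 1 in a fit of just those groups. At 4 h the 0 became 1 with DESeq2, 3 without a filter, 1 with only the groups compared and 0 to 1 on leaving out single mice. At 24 h the 0 became 2 with only the groups compared. For WT at 8 h against 4 h the 1 became 2 with limma on TPM, 2 without a filter and 1 to 3 on leaving out mice. For mice labelled cKO the 3 became 1 to 5 on leaving out mice or the 4 h library of mouse 3. Over the 4 times the 2 became 1 with 24 libraries taken as independent and 1 to 2 on leaving out mice. Over all genes the calls between genotypes moved from 51 to between 21 and 136 at 0 h, from 94 to 32 to 249 at 4 h, from 21 to 7 to 135 at 8 h, from 12 to 6 to 100 at 24 h and from 173 to 107 to 440 over the times. Interactions moved from 1 to 0 to 45 at 4 h, from 1 to 1 to 34 at 8 h, from 2 to 2 to 21 at 24 h and from 1 to 0 to 2 for 24 h against 8 h. With the mouse as a replicate block, which fits pairs of times and interactions, Slc2a3 at 4 h against 0 h in mice labelled cKO had an adjusted p of 0.0486 in place of 0.0502, and no other call among the 8 changed. The causes were not tested. Low counts limit Slc2a6, Slc16a3 and Slc16a5, on 1 to 32 counts a library where they were low.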
